A study of Mus musculus with 6 samples.

Results

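Slc4a1, Dmtn, Car2 and Itga2b are genes whose products do the specialised work of red cells and platelets. They were taken by symbol from the deposited table of nascent transcription, where each has 1 transcript row, so the members are 4 of 2744 genes and 4 of 3022 rows. PRO-seq was used: nuclei extend the RNA that their polymerases are making with tagged nucleotides, here for 3 min at 30 °C, and only tagged RNA is sequenced. Reads therefore count engaged polymerase along a gene, introns included, and not stored messenger RNA.

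The cells were cKIT+ bone marrow progenitors of C57/BL6 mice, female and carrying Mllt3 flox/flox and Rosa26Cre+, whose age is not given in the labels. They were transduced with wild-type MLLT3 (group WT) or with MLLT3 K63E K67E (group DM), a chromatin reader protein with 2 lysines replaced by glutamate, and the transduced cells were sorted. Both groups were then grown for 8 days in methylcellulose with erythropoietin, thrombopoietin, stem cell factor, Flt3 ligand, GM-CSF and interleukins, and with 200 nM 4-hydroxytamoxifen, given to delete the cells' own Mllt3. The controls were thus given the same deletion treatment and also carry a transgene. Reads over the whole Mllt3 body numbered 1853, 1167 and 2181 in WT and 1335, 1273 and 1176 in DM (edgeR log2 fold change -0.49, adjusted p 0.00370). No count for the floxed part alone was analysed here, so these reads do not check the deletion. Each group has 3 libraries, numbered 1 to 3 and all of batch 1. The labels do not say whether they came from separate mice or cultures, so the p-values measure only the spread between these samples, which may be technical.

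As background, erythropoietin and thrombopoietin let progenitors mature along the red cell and the platelet line, which share a precursor. Maturing red cells build a membrane anchored to a spectrin skeleton and equipped for carbon dioxide transport: a carbonic anhydrase turns carbon dioxide into bicarbonate, and an anion exchanger in the membrane swaps bicarbonate for chloride. Megakaryocytes, the parents of platelets, carry on their surface the fibrinogen receptor that lets platelets aggregate. Slc4a1 encodes that anion exchanger, also called band 3, and Dmtn encodes dematin, an actin-bundling protein of the red cell skeleton. Car2 encodes carbonic anhydrase II, a cytosolic enzyme of red cells found in many other cells. Itga2b encodes integrin alpha IIb, also called CD41, which marks megakaryocytes and is also present on early blood progenitors.

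Gene bodies of all 4 genes carried fewer reads in DM than in WT, and in none did the 3 DM libraries reach into the range of the 3 WT libraries. The same held for 38.3% of all genes tested. Slc4a1, Car2 and Itga2b fell to between 45.5% and 56.4% of their WT mean. Dmtn fell most in the mean, but 79.3% of its WT reads came from WT replicate 1. In the short window at the gene start, called the head, only Itga2b passed the test, of 3 members tested. Dmtn had too few head reads to be tested, and 20.3% of all genes tested passed there. Body counts of these genes belong to the comparison by which the authors' table was filled: every row held has an adjusted p under 0.05 there, the largest being 0.0498. That body reads differ is therefore a property of the table. Their sizes and spread over these 6 libraries decided that p, so they are described here and support nothing further. Head counts were not used in that choice, but the heads lie on genes that were.

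Library totals ran from 15112853 to 22981603 reads, and body and head counts are given as reads per 1000000 of that total (RPM). WT replicates differed from each other more than DM replicates did, with chi-square per degree of freedom over genes of 25.6 to 40.4 against 2.66 to 6.83. WT replicate 1 stood apart: 49 of 2641 genes with a mean of at least 50 body reads were 3 or more times higher there than in every other library, against 0 genes for each of the other 5 libraries, and Dmtn is one of the 49. Values are therefore given with and without it. Markers of cell types are also held only because their bodies differed between the groups. Sums that separate the groups follow largely from that choice and are only described. The summed body level of the 5 progenitor markers held of 11 was 2512 to 3241 RPM in WT and 1529 to 1587 in DM, and that of the 7 mast and basophil markers held of 14 was 3829 to 5676 and 2612 to 2719. Kit and Gata2 belong to both lists and make up much of each sum, while Procr, another progenitor marker, was called higher in DM (log2 fold change 1.26). The 8 monocyte and macrophage markers held of 18 summed to 229 to 305 RPM in WT and 618 to 687 in DM, and the 6 neutrophil markers held of 16 to 125 to 151 and 250.4 to 293, although Ctsg, a granule protease on that list, was called lower (-0.85). The 1 lymphoid marker held of 17, Il7r, had 18.8 to 28.5 RPM in WT and 56.0 to 71.5 in DM. None of these held markers was at 0 in a library, and the remaining markers were not analysed here. In such bulk samples fewer cells of a type and less nascent RNA per cell cannot be told apart, and the part of these markers in the members' differences was not tested.

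Slc4a1 (ENSMUSG00000006574.15, transcript Slc4a1-202) lies on chromosome 11 from 102348824 to 102365247, minus strand, in the mm10 build that the submitters' processing notes name. Its body of 16.1 kb held 327, 248 and 256 reads in the WT libraries, in the order of their numbers, against 133, 155 and 148 in the DM libraries. In RPM these were 14.2, 16.4 and 11.2 in WT against 5.82, 7.67 and 7.41 in DM, with means of 13.9 ± 2.62 and 6.97 ± 0.998 (SD, n = 3 each). The lowest WT library was above the highest DM library, and WT replicate 1 lay between the other WT libraries. In edgeR the log2 fold change was -0.999 (SE 0.199, adjusted p 0.00221), and -0.98 without WT replicate 1 (adjusted p 0.00281). Of all genes tested, 99.5% passed this threshold in either direction, 57.4% higher and 42.1% lower in DM, and without WT replicate 1 94.0% passed, 57.0% higher and 37.0% lower, so the members' calls carry no information beyond their being in the table.

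Dmtn (ENSMUSG00000022099.17, Dmtn-202) lies on chromosome 14 from 70601263 to 70636048, minus strand, with a body of 34.5 kb. Its body held 895, 131 and 103 reads in WT against 57, 73 and 65 reads in DM, or 38.9, 8.67 and 4.50 RPM against 2.50, 3.61 and 3.25. WT replicate 1 was 4.49 times the next highest library. The other WT libraries were above all DM libraries, WT replicate 3 by the least. The group means were 17.4 ± 18.8 and 3.12 ± 0.570 RPM (SD, n = 3 each), so that the SD in WT exceeded its mean. Without WT replicate 1 the WT mean was 6.59 ± 2.95 (SD, n = 2). By edgeR the log2 fold change was -2.48 with all libraries (SE 0.706, adjusted p 0.0103) and -1.06 without WT replicate 1 (SE 0.305, adjusted p 0.0117). The call remained, at a size close to that of the other members, but 94.0% of all genes tested were also called without that library.

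That library also held more reads of another set of markers. The 4 stromal, endothelial and mesenchymal markers held of 26 (Cav1, Ccn1, Ccn2 and Notch3) summed to 34.0 RPM in WT replicate 1 and to 4.02 to 10.1 RPM in the other 5 libraries. Notch3, a receptor of vascular smooth muscle and pericytes, had 462 body reads there, 75 and 38 in the other WT libraries, and 27, 38 and 29 in DM. Ccn1 and Ccn2 were highest in the same library, at 142 and 152 reads. Cav1, the caveolin of endothelial and stromal cells, went the other way, with 25, 15 and 23 body reads in WT against 143, 62 and 81 in DM. These markers are held because their bodies differed between the groups. Without WT replicate 1 the edgeR adjusted p was 0.0773 for Ccn1, 0.0725 for Ccn2 and 0.0475 for Notch3. The high level of these genes in that library may thus have placed them in the table, so it is only described. No held marker of the list was at 0, and the list's part in the Dmtn reads was not tested.

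Car2 (ENSMUSG00000027562.12, Car2-202) lies on chromosome 3 from 14886273 to 14900770, plus strand, with a body of 14.2 kb. The body held 830, 482 and 442 reads in WT against 258, 288 and 284 reads in DM. These were 36.1, 31.9 and 19.3 RPM against 11.3, 14.2 and 14.2 RPM, with means of 29.1 ± 8.74 and 13.3 ± 1.69 (SD, n = 3 each). WT replicate 3 was the lowest WT library and still above every DM library, and the DM libraries lay close together. The edgeR log2 fold change was -1.13 (SE 0.225, adjusted p 0.00214), and -0.94 without WT replicate 1, which held 47.3% of the WT reads (adjusted p 0.00386).

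Itga2b (ENSMUSG00000034664.13, Itga2b-205) lies on chromosome 11 from 102453297 to 102470122, minus strand, with a body of 16.5 kb. It was by far the most transcribed member, with 3038, 2088 and 3795 body reads in WT against 1817, 1815 and 1536 reads in DM. In RPM these were 132, 138 and 166 against 79.5, 89.8 and 76.9, with means of 145 ± 18.0 and 82.1 ± 6.81 (SD, n = 3 each). Here WT replicate 3 was the highest library and WT replicate 1 the lowest of WT, the opposite of Dmtn and Car2, and the groups did not overlap. The edgeR log2 fold change was -0.83 (SE 0.119, adjusted p 4.75e-04), and -0.89 without WT replicate 1 (adjusted p 3.48e-04).

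Of the 4 members, Itga2b alone was matched in the RefSeq promoter table (GRCm38.p6). The 250 bases before its RefSeq start, at chr11:102469884-102470133 on the minus strand, are shown because all of them lie in the window whose reads are counted as the gene's head: the deposited start is 239 bp upstream of the RefSeq start. Capitals mark the letters AGGAAG, the core bound by factors of the ETS family, several of which act in megakaryocytes.
Itga2b promoter: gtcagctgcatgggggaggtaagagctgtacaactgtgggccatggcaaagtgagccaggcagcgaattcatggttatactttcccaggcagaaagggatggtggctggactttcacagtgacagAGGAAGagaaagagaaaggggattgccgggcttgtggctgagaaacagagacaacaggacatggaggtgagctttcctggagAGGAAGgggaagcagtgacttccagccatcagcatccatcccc
A search on both strands found AGGAAG at 2 places, on the strand shown, starting 125 and 43 bases before the RefSeq start, and 29.5% of the 32851 promoters in that table hold it at least once. The letters GATA, the core of GATA factor sites, were not in this window on either strand, and 53.6% of promoters hold them. Also without a match on either strand were CACCC (in 52.0% of promoters), the GC box GGGCGG (in 32.7%) and the TATA box TATAAA (in 12.4%). The E-box CAGCTG occurred once, starting 248 bases before the RefSeq start, and 25.5% of promoters hold it or 1 of the other forms searched, CATCTG or else CAGATG. The window's GC content was 54.0%. These matches describe letters and no binding was measured.

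**Figure D1:**
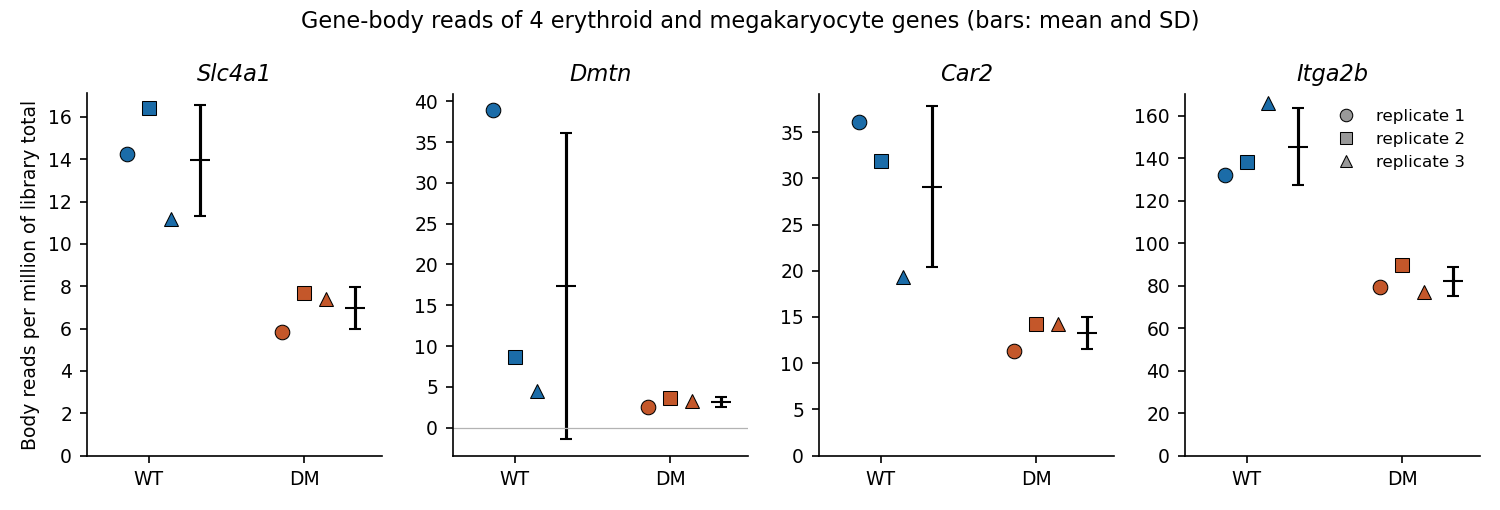
Body RPM of the library total (vertical axis, linear, a separate scale for each gene) in the WT and DM libraries of Slc4a1, Dmtn, Car2 and Itga2b. Each symbol is 1 library, its shape gives the replicate number, and the bars give the mean and SD of 3 libraries. For Slc4a1, WT spans 11.2 to 16.4 and DM 5.82 to 7.67, while for Dmtn 1 WT library lies at 38.9 and the other libraries at 8.67 or below.

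In a count over groups that did not overlap, all 4 members were lower in DM in body RPM with and without WT replicate 1, as were 38.3% and 38.7% of all genes tested. Deposited RPKM values, which divide by window length, let the genes be ranked. Itga2b had the highest body level, with 8.00, 8.36 and 10.0 RPKM in WT and 4.81, 5.43 and 4.65 in DM. Car2 followed with 2.54, 2.25 and 1.36 in WT and 0.796, 1.00 and 1.00 in DM, then Slc4a1 with 0.883, 1.02 and 0.694 in WT and 0.361, 0.476 and 0.459 in DM. Dmtn had 1.13, 0.251 and 0.131 in WT against 0.0724, 0.105 and 0.0943 in DM. The order was the same in every DM library with no overlap between neighbours. In WT it was the same by the group means, but Dmtn in WT replicate 1 exceeded all 3 Slc4a1 values, so these neighbours overlapped there. Set among the genes held, the mean level of Itga2b was above that of 94.9% of genes in WT and 87.8% in DM, and Car2 above 74.1% and 46.0%. Slc4a1 stood above 47.7% and 26.2%, and Dmtn above 32.9% and 7.94%.

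The scaling sets the zero of these body changes. With deposited totals the median log2 fold change of all genes was 0.40, and 57.7% of calls were higher in DM. TMM factors computed from the rows held lowered that median by 0.29 and the share of higher calls to 44.9%. Relative to the median of all genes under library totals, the body changes were -1.39 for Slc4a1, -1.53 for Car2, -1.22 for Itga2b and -2.88 for Dmtn. Under TMM they were -1.40, -1.54, -1.22 and -2.91. All 4 members were called lower under library totals, under TMM and under the authors' size factors. In the same order, 1145, 1156 and 1158 of the 2721 genes tested were called lower. In either direction 2707, 2099 and 2720 were called, so these calls add little to being in the table. In the authors' deposited table, the body log2 fold changes were -1.03 for Slc4a1, -1.17 for Car2, -0.85 for Itga2b and -2.48 for Dmtn.

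The head window is 330 bp long, of which 30 bp lie before the deposited 5′ end. Polymerase often halts shortly after the start, and reads there reflect polymerases that have initiated, whether or not they go on. The members' heads held few reads, 1333 in all over the 6 libraries, which limits what these tests can show.

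Itga2b had 191, 158 and 262 head reads in WT against 109, 113 and 101 in DM, or 8.31, 10.5 and 11.5 RPM against 4.77, 5.59 and 5.05. Every WT library was above every DM library, as in the body. Most of this gene's head window lies upstream of its RefSeq start at 102469883, and reads from 102469821 onward count as body. If polymerase starts at the RefSeq position, part of the reads near the start are therefore in the body count. Which start these cells use was not tested. The edgeR log2 fold change of the head was -0.97 (SE 0.255, adjusted p 0.0180). Without WT replicate 1 it was -1.09 (adjusted p 0.00242). The call rested on small margins, since leaving out WT replicate 3 or DM replicate 1, 2 or 3 gave adjusted p-values in edgeR of 0.0662, 0.114, 0.0673 and 0.116. Among all genes tested, 20.3% passed in the head, 9.62% higher and 10.7% lower in DM, so 1 call among the 3 members tested is to be read against that share. Without WT replicate 1 the share was 32.6%, with 9.97% higher and 22.6% lower.

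Slc4a1 had 18, 17 and 17 head reads in WT against 10, 7 and 14 in DM, or 0.783, 1.12 and 0.743 RPM against 0.438, 0.346 and 0.701. The groups did not overlap, by a narrow gap between WT replicate 3 and DM replicate 3. The edgeR log2 fold change of -0.81 had an SE of 0.436 and did not pass (adjusted p 0.192). Car2 had 45, 31 and 60 head reads in WT against 54, 35 and 25 in DM, or 1.96, 2.05 and 2.62 RPM against 2.36, 1.73 and 1.25. DM replicate 1 lay above WT replicates 1 and 2, so its groups overlapped. The edgeR log2 fold change was -0.31 (SE 0.324, adjusted p 0.527). Without WT replicate 1 neither gene passed in edgeR, with -0.88 for Slc4a1 (adjusted p 0.168) and -0.39 for Car2 (adjusted p 0.359). Groups that did not overlap, lower in DM, were found in the heads of 23.4% of all genes tested, and in 38.8% without WT replicate 1.

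Dmtn had 58, 3 and 2 head reads in WT against 0, 3 and 0 in DM, so 92.1% of its WT head reads came from WT replicate 1. Its level there was 2.52 RPM, against 0.199 and 0.0874 in the other WT libraries and 0.148 in DM replicate 2. The 0 counts in DM replicates 1 and 3 allow levels of up to 0.131 and 0.150 RPM, the worth of 3 reads, for counting error only. The remaining WT libraries overlapped with DM, and no head difference was detectable at this depth without WT replicate 1. The gene did not pass the filter on low counts in the head. Without that filter edgeR gave a log2 fold change of -4.17 (SE 1.31, adjusted p 0.0401), a value that WT replicate 1 carries. The lower-coordinate end of a RefSeq gene, Gm38605, lies 10 bp upstream of the deposited Dmtn start and inside its head window. Which end of that gene this is was not analysed. Whether reads were counted by strand is not given in the sources used here.

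**Figure D2:**
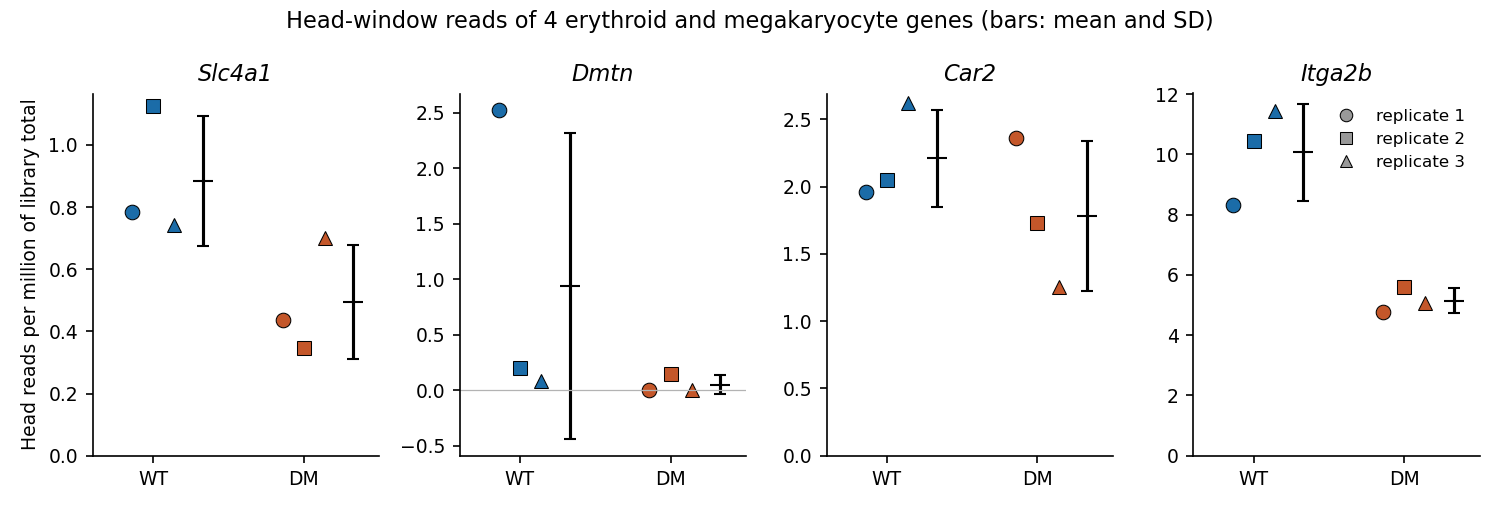
Head-window RPM of the library total (vertical axis, linear, a separate scale for each gene) for the same genes and libraries, with symbols for libraries and bars for the mean and SD of 3 libraries. Itga2b separates the groups, at 8.31 to 11.5 in WT and 4.77 to 5.59 in DM, Car2 does not, and Dmtn has 1 WT library at 2.52 with the others at 0.199 or below.

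Whether polymerase was shifted between the gene start and the body was asked with the head to body ratio. Per 100 body reads, Itga2b had 6.29, 7.57 and 6.90 head reads in WT against 6.0, 6.23 and 6.58 in DM, and Slc4a1 had 5.51, 6.85 and 6.64 in WT against 7.52, 4.52 and 9.46 in DM. Car2 had 5.42, 6.43 and 13.6 in WT against 20.9, 12.2 and 8.80 in DM. Dmtn had 6.48, 2.29 and 1.94 in WT against 0, 4.11 and 0 in DM. The groups of Slc4a1, Car2 and Dmtn overlapped, and so did those of Itga2b, whose 6 values lay closest together. Without WT replicate 1 the Itga2b groups no longer overlapped, at 7.57 and 6.90 in WT against 6.0, 6.23 and 6.58 in DM. Those of Slc4a1, Car2 and Dmtn still did. The share of all genes whose ratios separate in this way was not counted. Over the whole table the same quantity was 13.4, 23.7 and 14.9 in WT against 12.7, 14.5 and 13.8 in DM, with WT replicate 2 highest. Itga2b, Slc4a1 and Dmtn lay below the table's value in every library, and Car2 in 5 of 6. This quantity is not divided by window length, and the table's value pools the reads of genes of all lengths. A lower value can thus come from a longer body alone. For Dmtn it rests on at most 3 head reads outside WT replicate 1, and for Itga2b on the window placed as described above.

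No member's ratio passed the test in edgeR. The log2 change of the ratio was 0.77 for Car2 (SE 0.408, adjusted p 0.367), 0.18 for Slc4a1 (SE 0.413, adjusted p 0.850) and -0.14 for Itga2b (SE 0.247, adjusted p 0.797). Without WT replicate 1 these were 0.48, 0.080 and -0.20. The sign for Itga2b turned to 0.22 with separate TMM factors for heads and bodies, and that for Slc4a1 to -0.079 without DM replicate 3. Only 0.0776% of all genes passed this test (0.691% without WT replicate 1), while 395 had an unadjusted p under 0.05 and DESeq2 called 34 genes, and the SEs set what could be detected for the members.

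**Figure D3:**
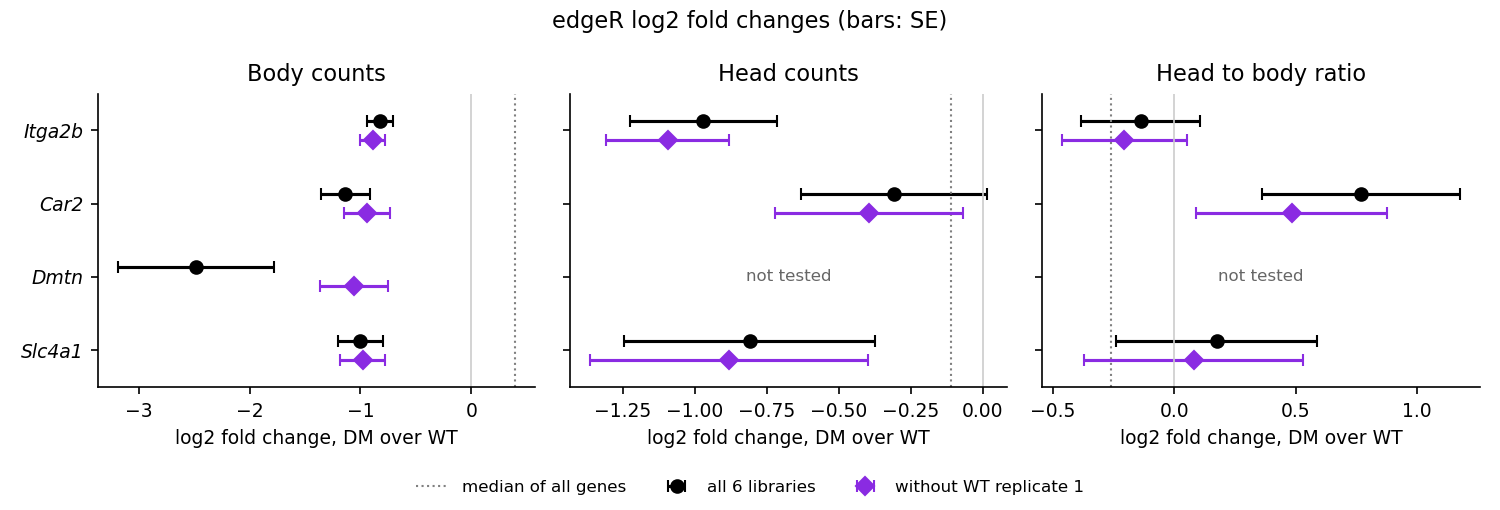
edgeR log2 fold changes, DM over WT, of body counts, head counts and the head to body ratio for the 4 genes (horizontal axis, each panel on its own scale), with bars for the SE. Black circles use all 6 libraries and purple diamonds leave out WT replicate 1, and the dotted line is the median of all genes with 6 libraries (0.40, -0.11 and -0.26). The body value of Dmtn moves from -2.48 to -1.06 without that library, while those of Slc4a1 and Itga2b move little.

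Slc4a1 and Itga2b are near neighbours, 88.1 kb apart on chromosome 11 and on the same strand. RefSeq places 7 genes between them, of which Grn, the gene of the growth factor progranulin, was analysed here. Grn went the other way, with 26.7, 40.0 and 44.4 body RPM in WT and 70.9, 65.2 and 74.6 in DM. All DM libraries were above all WT libraries, and the edgeR log2 fold change was 0.92 (SE 0.175, adjusted p 0.00178). Its head had a log2 fold change of 0.73 and missed the threshold in edgeR (adjusted p 0.0630). Hrob, within 100 kb of Slc4a1 outside that interval, fell as Slc4a1 did, at -0.50 in the body (edgeR adjusted p 0.0141). Within 100 kb of Car2 and of Dmtn no other gene held was found.

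The members' patterns over the 6 libraries were compared with those of 2640 other genes by Pearson's r of log2 body RPM, as a description in which all values share libraries and depth and the group difference itself. The genes most like Slc4a1 were Pif1 (r = 0.998), Arpp21 (0.993) and Rpl13a (0.988), and those most like Car2 were Uhrf1 (0.998), Rcor2 (0.997) and Sox12 (0.991). Rcn1 (r = 0.999), Cbfa2t3 (0.998) and Slc12a5 (0.998) were most like Itga2b, and Cbx7 (0.996), Syt9 (0.995) and Ccdc85c (0.995) most like Dmtn. Between members, r was 0.966 for Slc4a1 and Car2, 0.905 for Dmtn and Car2, and 0.773 for Slc4a1 and Dmtn. Itga2b had 0.843 with Slc4a1, 0.748 with Car2 and 0.554 with Dmtn.

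With each group's mean taken off, which leaves only the spread within the groups, Pif1 (r = 0.987), A530064D06Rik (0.986) and Arpp21 (0.967) were most like Slc4a1. Rcor2 (0.996), Uhrf1 (0.993) and Plbd1 (0.990) were most like Car2. Rap1gap2 (0.996), Rcn1 (0.992) and Gm15860 (0.988) were most like Itga2b, and Plod2 (0.996), Mybl2 (0.994) and Syt9 (0.994) most like Dmtn. On this scale Car2 went with Slc4a1 (0.846) and Dmtn (0.835), but Slc4a1 and Dmtn reached only 0.436. Itga2b had negative values with all 3 other members, at -0.41 with Slc4a1, -0.70 with Car2 and -0.64 with Dmtn. By this measure Car2 ranked 31 of 2640 genes in likeness to Slc4a1. The 3 erythroid genes were lowest of WT in replicate 3, where Itga2b was highest.

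The other genes of these pathways moved in both directions. Under TMM no list gene turned its sign, and the counts of calls are given beside the main ones where they differ. Of 25 red cell membrane and skeleton genes, 8 were held, Slc4a1 and Dmtn included, and their bodies were called higher in DM for 4 and lower for 4, with a median log2 fold change of 0.019 against 0.40 for all genes (under TMM 3 higher and 4 lower, median -0.27 against 0.11). Those that rose most firmly were Cd44 (1.39), a hyaluronan receptor of many blood cells, Mpp1 (1.10), a palmitoylated scaffold protein of the red cell membrane, and Stom (1.08), the membrane protein stomatin. All 3 also rose in the head, by 1.04, 0.92 and 0.87 on the log2 scale, with edgeR adjusted p-values of 0.0159, 0.0381 and 0.0304. Cd44 had 4794, 3159 and 5502 body reads in WT against 13882, 10893 and 11442 in DM, so its groups stood well apart. Called lower in the body besides Slc4a1 and Dmtn were Sptb (-0.96) and Gypc (-0.46), with edgeR adjusted p-values of 0.00816 and 0.0125. The Gypc head missed the threshold at -0.66 (edgeR adjusted p 0.0881). It passed without WT replicate 1, at -0.71 (edgeR adjusted p 0.0420).

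Of 29 genes of haem, globin and iron handling, 7 were held, 5 called higher and 2 lower in the body (median 0.58, and 4 and 2 under TMM), and none of the 7 passed in the head. The named ones were Alas1 (1.14), the housekeeping first enzyme of haem synthesis, Hmox1 (1.14), which breaks haem down, and Fth1 (1.08), the ferritin heavy chain. Among 21 carbonic anhydrases and bicarbonate carriers, 5 were held and 4 fell, Car2 and Slc4a1 among them (median -0.99). Car12, a membrane-bound carbonic anhydrase, fell by 0.83 on the log2 scale, and Slc4a4, a sodium bicarbonate cotransporter, by 0.99. Car4, another membrane-anchored form, rose by 1.20, from 300, 365 and 309 body reads in WT to 949, 656 and 830 in DM. In the head, Car12 alone of the 5 passed, at -0.91 (edgeR adjusted p 0.0342).

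Late erythroid maturation genes had 10 of 30 held, 3 higher and 7 lower in the body (median -0.68), and 5 of the 10 passed in the head, all lower. Tmcc2, a transmembrane protein abundant in maturing red cells, fell by 0.76 in the body and by 1.48 in the head on the log2 scale (edgeR adjusted p 0.00158 and 0.0325). Nfia, a transcription factor of the erythroid line, fell by 0.60 in the body, and its head value of -0.998 missed the threshold in edgeR (adjusted p 0.0577) and passed without WT replicate 1 (adjusted p 0.00974). Bcl2l1, whose product BCL-XL protects maturing erythroid cells from death, went the other way, at 0.73 in the body.

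Around Itga2b, megakaryocyte and platelet genes were split. Of 50, 10 were held, 5 higher and 5 lower in the body (median 0.14, and 3 and 5 under TMM with a median of -0.16), and 1 rose and 2 fell in the head, Itga2b included. F2r, a thrombin receptor, fell by 0.81 in the body and by 1.02 in the head on the log2 scale (edgeR adjusted p 0.0106 for the head). Thbs1, the platelet granule protein thrombospondin also made by many other cells, rose by 1.35, and Cd9, a tetraspanin of platelets and other blood cells, by 1.07. The Thbs1 head was called at 0.94 (edgeR adjusted p 0.0476) and not without WT replicate 1 (adjusted p 0.0569). Without WT replicate 1, 1 fewer gene of the list was called lower in the body.

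Itga2b pairs with a beta chain to form a receptor, and of 26 integrin chains 11 were held, 7 higher and 4 lower in the body (median 0.67, and 6 and 4 under TMM). Itgam and Itgax, alpha chains of myeloid cells, rose by 1.24 and 1.08 on the log2 scale, and Itgb2, their beta chain, by 1.24. Itga4, an alpha chain of many leukocytes, was called lower, at -0.97 (edgeR adjusted p 3.46e-04). The heads of Itgam, Itgb2 and Itgax rose by 1.14, 1.08 and 1.25 (edgeR adjusted p 0.00990, 0.0244 and 0.0145). Itga9, another alpha chain, fell by 1.48 in the body and by 2.50 in the head (edgeR adjusted p 6.22e-05 and 0.00649). Itga3, singled out after its values were seen, had 418 body reads in WT replicate 1, 45 and 27 in the other WT libraries and 26, 34 and 18 in DM. Its edgeR log2 fold change went from -2.59 (adjusted p 0.0198) to -0.68 without that library (adjusted p 0.173), so its call, unlike that of Dmtn, was lost.

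Of 25 transcription regulators of the erythroid and megakaryocyte lines, 13 were held, and 12 of them were called lower in the body and 1 higher (median -0.72, and 12 and 0 under TMM). In the head 5 were called, all lower, and 8 without WT replicate 1. Meis1, a homeobox factor of stem cells and megakaryocytes, fell by 1.15, Gata2, a GATA factor of early progenitors and mast cells, by 0.85, and Cbfa2t3, a corepressor found in erythroid and megakaryocyte factor complexes, by 0.76. Their heads fell by 1.07, 1.18 and 1.17 on the log2 scale (edgeR adjusted p 0.0137, 0.0123 and 0.0192). The head calls of all lists are to be read against the 20.3% of all genes that passed there, 9.62% higher and 10.7% lower. Without WT replicate 1 these head shares were 32.6%, 9.97% and 22.6%. Body calls are to be read against 99.5%, with 57.4% higher and 42.1% lower (57.0% and 37.0% without WT replicate 1). Under TMM 943 of 2721 bodies were called higher and 1156 lower.

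**Figure D4:**
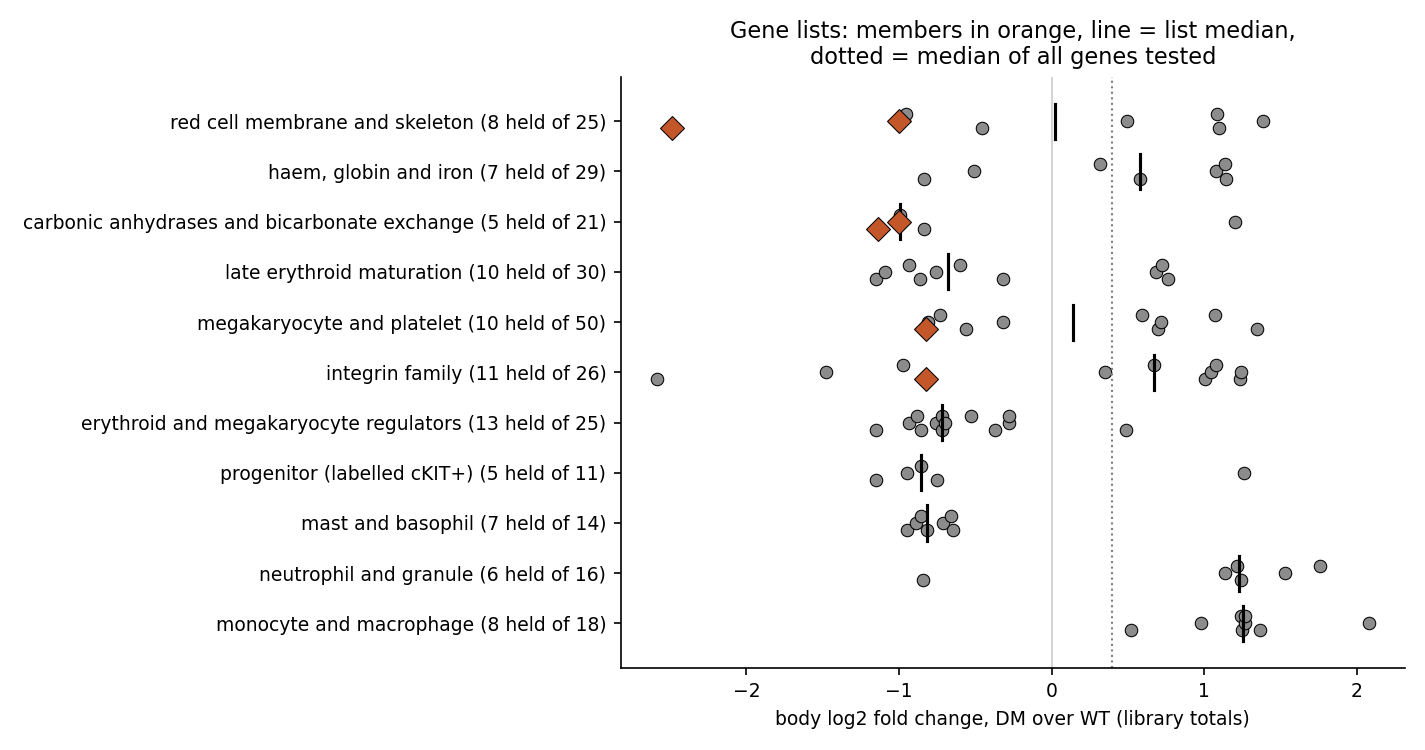
Body log2 fold change, DM over WT, scaled by library totals (horizontal axis), for the genes held of 11 lists (rows). Orange diamonds are Slc4a1, Dmtn, Car2 and Itga2b, grey circles other genes, the short line is the list's median, and the dotted line is the median of all genes tested (0.40). Among the lists drawn, medians run from -0.99 for carbonic anhydrases and bicarbonate exchange to 1.26 for monocyte and macrophage markers, and the 4 members lie at or below the median of every list they belong to.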

How the data were processed

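PRO-seq reads of 3 WT and 3 DM libraries were taken from the authors' table of called transcripts. Raw counts per head and body window, and a total per library, were deposited by the authors; how the totals were counted is not stated. The authors also deposited RPKM values, which were recomputed from counts, window lengths and totals without a difference above rounding. The deposited mean signal per row averages body counts after division by size factors, which were recovered from it. Log2 fold changes, p-values and adjusted p-values of the body comparison were deposited by the authors, with no tool or version stated. The ratio of head to body RPKM was computed by the authors after adding 0.1 and was not used. Per the submitters' processing notes, cutadapt, Trimmomatic, Bowtie, MACS2 and bedtools were used, with the builds mm10 and dm3. Their roles, the annotation and the use of strand are not given in the sources used here. Coordinates are as deposited.

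Where a gene had several rows, the one with most body reads on average stood for it. Body and head counts were tested with edgeR 4.0.16 (limma 3.58.1, R 4.3.3), quasi-likelihood test, group as the only term, after filterByExpr (minimum count 10, total 15). Offsets came from the library totals, because the rows were chosen by the body comparison and TMM factors from them would centre that choice. The ratio was tested as the region by group interaction with library as a block. P-values were adjusted by Benjamini-Hochberg over all genes tested, at 0.05. SE is the log2 fold change divided by the root of the F statistic. Procedures were tested on simulated counts in which 200 genes were changed 2-fold. Of these, 98.5% were recovered in bodies, 93% in heads and 75% for the ratio, with 8, 2 and 9 false calls. The simulation gave all genes and both groups the same spread, while the WT replicates here differed more than the DM replicates. It therefore does not show how the tests perform on these libraries.

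The 4 genes and the lists were chosen with earlier results of these data known. Named from each list were up to 3 genes by smallest body adjusted p, and membrane and integrin genes whose heads passed, and for each member the 3 genes of highest r (offset 0.1 RPM, mean of at least 50 body reads). Sptb and Gypc were named besides, as the membrane genes called lower other than members. They are not among the 33 named genes followed over the alternatives. Deviations of same-numbered libraries from their group means correlated at -0.088, -0.18 and 0.36 in bodies and 0.098, -0.035 and 0.096 in heads for numbers 1 to 3, not above 0.1 for every pair, so numbers were not taken as pairs. Alternatives were each library left out, no filter, TMM, the authors' size factors, all rows, DESeq2 1.42.0 and a replicate block.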

Additional observations from a re-analysis of the deposited data

How the results depend on the processing

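The body calls of all 4 genes kept their direction and side of the threshold under every alternative run. Most genes of the table were called in each as well, from 2047 of 2739 without DM replicate 3 to 2720 of 2721 under the authors' size factors. Leaving out 1 library in turn moved the body log2 fold change of Dmtn from -2.95 to -1.06, of Car2 from -1.36 to -0.94, of Slc4a1 from -1.14 to -0.87 and of Itga2b from -0.89 to -0.72. The Itga2b head then ran from -1.09 to -0.87, with the calls lost given above. Genes called higher in the body numbered 1562, and 943 under TMM; 1145 were called lower, with 711 to 1129 when 1 library was left out. Head calls numbered 524 (248 higher, 276 lower). They were 984 under TMM (487 and 497), 796 with the replicate block (375 and 421), and 14 to 942 without 1 library (10 to 579 and 4 to 590). Ratio calls numbered 2, both lower. They were 56 with separate TMM factors (38 higher, 18 lower), 38 with the replicate block (5 and 33), 34 with DESeq2 (4 and 30), and 0 to 82 without 1 library (0 to 24 and 0 to 58). The ratio change of Itga2b turned to 0.22 with separate TMM factors, and that of Slc4a1 ran from -0.079 to 0.44 over libraries left out. The cause was not tested. The replicate block changed no call of a member. Of 693 values of 33 named genes, 611 stayed the same, 59 lost and 21 gained the call, and 2 turned: the Fth1 head, at -0.094 without WT replicate 1 and 0.34 without WT replicate 2, and the Slc4a4 head, at 0.59 without WT replicate 2. Low head counts limit what can be seen for Slc4a1, Car2 and Dmtn.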
